A study of Homo sapiens with 18 samples.

Results

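In LNCaP, an androgen-responsive line of human prostate cancer cells, 131 genes had no count over the 3 control libraries and at least 10 counts over the 3 libraries from cells kept in M1 macrophage medium. They were found among 28087 named genes, of which 7037 had no count in control libraries. Each gene was taken as its most counted transcript, rounded to whole numbers. The rule met 174 genes, and 43 whose symbols start with LINC, OAS, IFIT, CXCL, CCL, IL, HLA, KRT, SERPIN, SAA, SLC or TRIM were left out. Of the 131 members, 95 are counted on a coding transcript and 36 on a noncoding one.

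The study sequenced polyadenylated RNA from 18 libraries of LNCaP, labelled wild type, in 6 groups of 3, each after 48 h of treatment. The groups are M1 medium with IKK16 at 0.7 μmol/l, M1 medium with an equal amount of its solvent DMSO, M1 medium alone, M2 medium, M0 medium, and control. Conditioned media came from THP-1 macrophages, cells made from a human monocytic leukaemia line, left unpolarised (M0) or polarised (M1 or M2), and were diluted 1:4 in RPMI with 10% heat-inactivated serum. The control received that RPMI alone, so no macrophage cells are part of any label. The labels number the replicates without saying that they are separate cultures, so p-values reflect the spread among these samples alone, and that spread may be technical. IKK16 inhibits the IκB kinases.

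In resting cells the transcription factor NF-κB is held in the cytoplasm by IκB proteins. Inflammatory signals such as tumour necrosis factor and interleukin 1 activate the IκB kinases, which mark IκB for destruction and so free NF-κB to bind short κB sites in promoters. Interferons act through STAT and IRF factors, which bind the gamma-activated site (GAS) and the interferon-stimulated response element (ISRE), and many inflammatory genes are driven by several of these routes. Complement factors, acute phase proteins, guanylate-binding proteins and antimicrobial peptides are well known genes of this kind in epithelia.

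The promoters of 4 members are shown because they carry the same kind of κB match while their levels with IKK16 differed. Each is 300 bases from RefSeq (GRCh38.p14), 250 before the start of transcription and 50 from it on, and capitals mark letters of a κB or GAS match. CHI3L2 encodes a secreted chitinase-like protein and its promoter lies at chr1:111227409-111227708 on the plus strand. XAF1 encodes an interferon-induced binding partner of the apoptosis inhibitor XIAP and its promoter lies at chr17:6755796-6756095 on the plus strand. LTB encodes lymphotoxin beta, a membrane ligand of the tumour necrosis factor family, with its promoter at chr6:31582376-31582675 on the minus strand. MIR3142HG is the host transcript of the microRNA miR-146a, with its promoter at chr5:160468001-160468300 on the plus strand.
CHI3L2: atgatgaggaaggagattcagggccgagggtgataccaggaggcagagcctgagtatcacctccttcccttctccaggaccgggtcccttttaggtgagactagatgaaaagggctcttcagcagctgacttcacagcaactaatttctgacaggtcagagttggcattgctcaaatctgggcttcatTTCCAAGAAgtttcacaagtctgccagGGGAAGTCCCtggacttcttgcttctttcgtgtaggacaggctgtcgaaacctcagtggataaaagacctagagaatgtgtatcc
XAF1: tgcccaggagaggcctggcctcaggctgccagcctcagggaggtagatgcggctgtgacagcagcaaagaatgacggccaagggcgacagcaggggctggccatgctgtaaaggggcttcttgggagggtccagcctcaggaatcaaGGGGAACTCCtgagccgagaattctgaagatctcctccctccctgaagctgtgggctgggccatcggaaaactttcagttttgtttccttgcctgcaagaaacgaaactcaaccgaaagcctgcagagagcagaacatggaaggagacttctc
LTB: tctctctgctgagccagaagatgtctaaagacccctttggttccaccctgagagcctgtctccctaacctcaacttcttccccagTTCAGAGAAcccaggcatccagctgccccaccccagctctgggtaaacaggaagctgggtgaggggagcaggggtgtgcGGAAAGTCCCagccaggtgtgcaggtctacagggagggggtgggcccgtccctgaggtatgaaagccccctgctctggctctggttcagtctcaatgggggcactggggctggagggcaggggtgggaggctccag
MIR3142HG: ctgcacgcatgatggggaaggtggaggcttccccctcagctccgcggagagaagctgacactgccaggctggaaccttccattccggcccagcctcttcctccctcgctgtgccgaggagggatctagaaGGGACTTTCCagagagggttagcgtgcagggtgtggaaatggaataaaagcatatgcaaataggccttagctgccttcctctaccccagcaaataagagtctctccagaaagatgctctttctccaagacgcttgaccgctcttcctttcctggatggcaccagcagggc
The κB match begins 35 bases before the start in CHI3L2, 103 in XAF1, 86 in LTB and 120 in MIR3142HG, and a GAS match begins 62 bases before the start in CHI3L2 and 165 in LTB. With IKK16, CHI3L2 held 11.7% of its mean level with DMSO, XAF1 52.2%, LTB 83.9% and MIR3142HG 166%, and the tests of these differences stand with the counts of each gene.

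The members were chosen by their counts in the control and M1 libraries, so that they are at 0 in control and above it in M1 medium is a description. Most members were low. The median total over the 3 M1 libraries was 21 counts, 7 members had exactly 10, and 70 of the 131 reached 20 counts. Just inside the rule stood C5orf58, CABCOCO1 and CLIC6, each with 10 counts in M1 medium. Just outside it stood CYP27A1, DUSP13A and DUSP13B, each with 9 counts in M1 medium and 0 in control. A further 67 genes missed the rule through a single control count, among them NPHS1 with 446, TLR2 with 354 and CEACAM6 with 352 counts in M1 medium, against 1 count each in control. Libraries held 24201864 to 33813552.5 gene counts, so the limit that a count of 0 allows, 3 counts, is 0.0901 to 0.126 CPM (counts relative to TMM-scaled library size) and covers counting error only. A level of 0 in control therefore means below that limit. Before rounding, 18 members had fractional control counts, at most 1.5 in all.

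CHI3L2 gave most of the members' counts. It had 5230, 5436 and 5029 counts in M1 medium and 0 in all 3 control libraries. That was 15695 of the 23865 counts of all 131 members in M1 medium, and without it the other 130 had 8170. C3, the central protein of the complement cascade, had 514, 420 and 456 counts in M1 medium. CES1, a carboxylesterase of drug and lipid metabolism, had 350, 313 and 334 counts. LGALS9, which encodes the sugar-binding protein galectin-9, had 224, 193 and 221 counts. PIP, a secreted protein known from breast and other exocrine glands, had 135, 88 and 130 counts, and SNPH, syntaphilin, which anchors mitochondria in axons, had 106, 100 and 131. VNN3 had 62, 92 and 82 counts, and every remaining member had fewer over the 3 libraries. Per kilobase of transcript, the mean level with DMSO was 87.7 CPM for CHI3L2, 7.76 for PIP, 6.16 for CES1 and 2.67 for C3. On that scale MIR4260, an entry of 67 bases, was above PIP at 10.9 CPM, and S100A8 was above C3 at 2.72 CPM. A transcript length was known for 111 members.

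**Figure D1:**
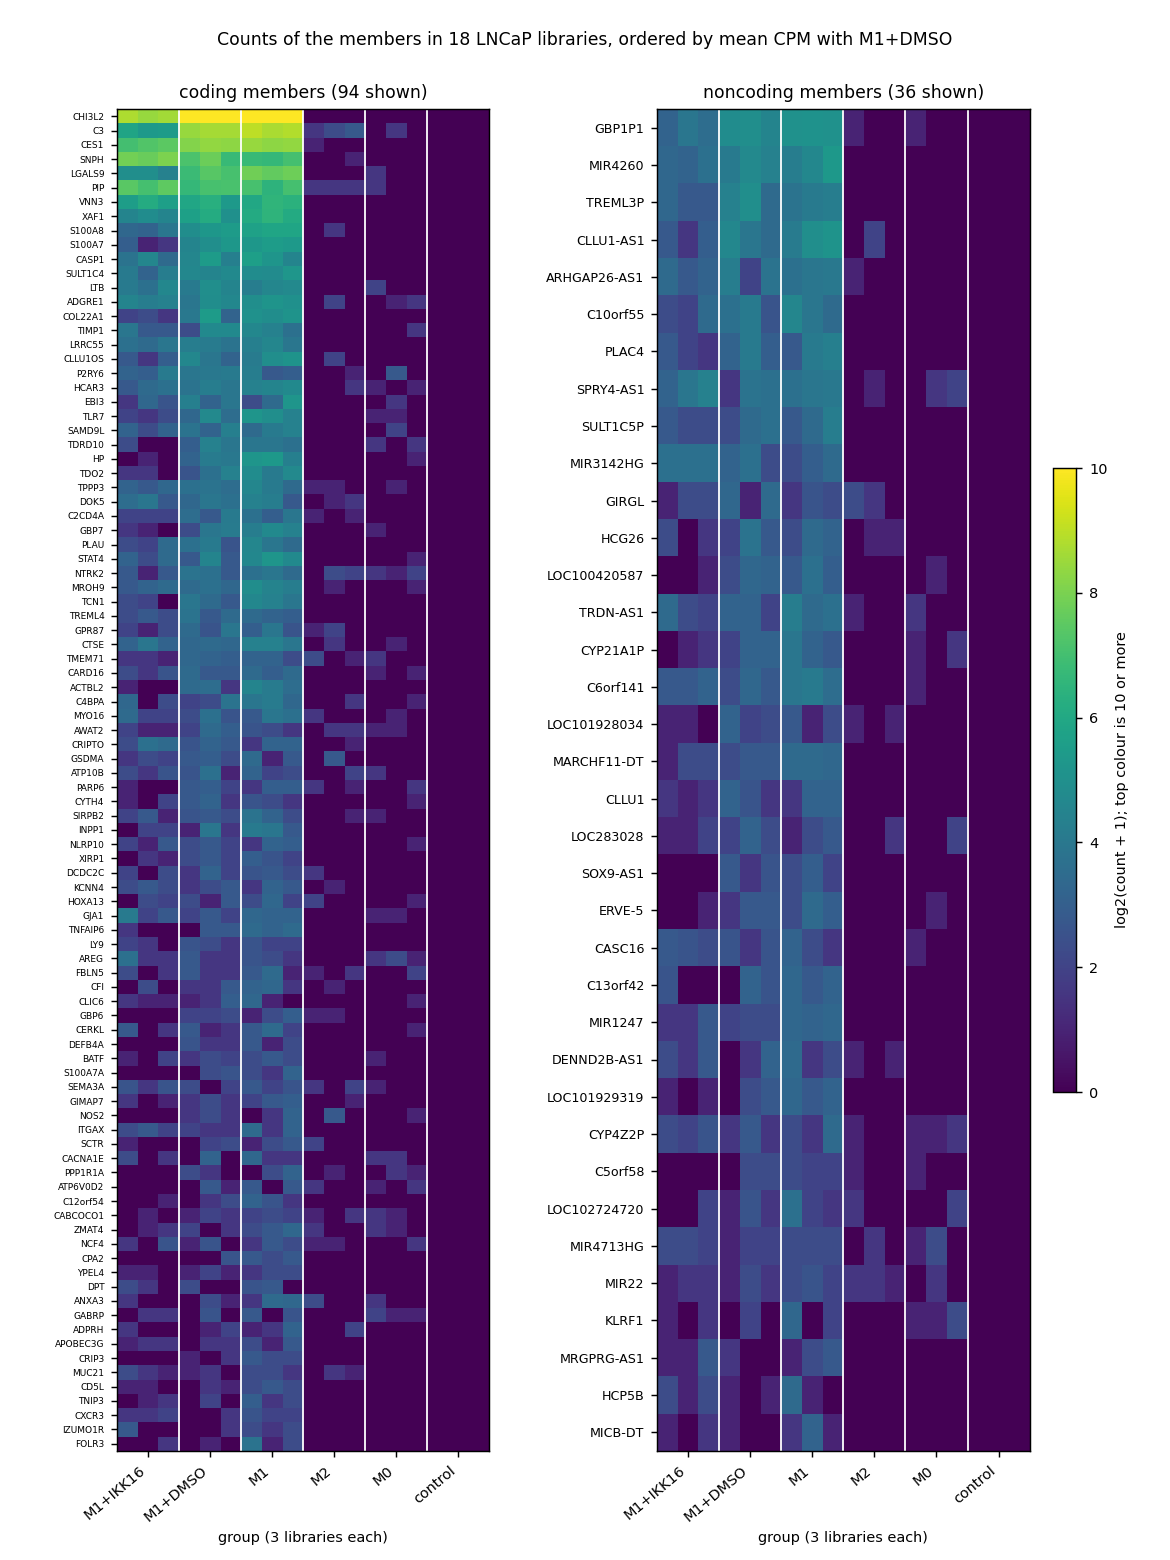
Counts of 94 of the 95 coding (left) and all 36 noncoding members (right) in each of the 18 libraries, as log2(count + 1), with members ordered by mean CPM in M1 medium with DMSO. The 3 control columns are at 0 by the rule, the M2 and M0 columns are nearly so, and CHI3L2 is the brightest row in every library with M1 medium.

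The M1 medium with DMSO, whose libraries the rule did not use, gave counts for every member. The members summed to 17235 counts with DMSO, against 142 in M0 medium and 158 in M2 medium. All 3 DMSO libraries had a count for 100 of the 131 members, and the median total was 16. In M0 medium 70 members had no count, in M2 medium 73, and 47 had none in either. No member exceeded 12 counts over the 3 libraries of M0 or M2 medium.

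Against M0 medium, 91 of the 131 members were higher in M1 medium with DMSO and 0 were lower (edgeR quasi-likelihood test, Benjamini-Hochberg adjusted p under 0.05). At an unadjusted p under 0.05, 97 were higher and 0 lower, and DESeq2 called 84 higher and 0 lower. Over all 20506 genes tested, 28.0% were higher and 27.6% lower in that comparison. Against M2 medium 92 members were higher and 0 lower (97 and 0 at an unadjusted p under 0.05, 80 and 0 with DESeq2), beside 28.0% of all genes higher and 28.0% lower. Both comparisons use the same DMSO libraries, and the solvent cannot be told apart from the medium in them. No member had more than 12 counts over the 3 libraries of M0 or M2 medium. A lower call was therefore hardly possible, and 0 lower says little. CHI3L2 averaged 131 ± 7.74 CPM with DMSO and had no count in M0 medium (SD, n = 3), which is at least 1210-fold higher when M0 is set at 3 counts per library. For CES1 that bound was at least 105-fold, for SNPH at least 50.6-fold, for VNN3 at least 19.7-fold and for S100A8 at least 12.5-fold. Of the members not called higher than M0 medium, AREG, which encodes the epidermal growth factor receptor ligand amphiregulin, had 6, 2 and 2 counts with DMSO and 2, 4 and 1 in M0 medium. These groups overlap. In all, 40 members were not called. In bulk samples such as these, fewer cells with a transcript and less of it per cell cannot be told apart.

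IKK16 was compared with DMSO in M1 medium, in libraries the rule did not use. With IKK16, 22 members were lower and 2 higher, while 107 did not pass the test (edgeR, adjusted p under 0.05). DESeq2 called 14 lower and 1 higher; it gave no adjusted p for 7 of the 22. That is 16.8% of members lower and 1.53% higher, beside 11.0% lower and 10.8% higher over all 20506 genes. The median log2 fold change was -0.89 over the members and 0.00 over all genes tested. With the 10 members that had no count with IKK16 set at the bound of 3 counts per library, the members' median was -0.67. The libraries with IKK16 lay below all those with DMSO for 39 members, and above them for 3, beside 19.7% and 18.9% of all genes. In counts the members summed to 4697 with IKK16, against 17235 with DMSO, and without CHI3L2 to 3525 with IKK16, against 6401 with DMSO.

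Counts limited what could be called. Over the 6 libraries with IKK16 or DMSO, 56 members had at least 30 counts, and of these 16 were lower and 2 higher with IKK16. Those are 28.6% and 3.57%, beside 13.0% and 12.8% of the 17115 genes with that many counts. Of the 56, 11 kept at most 25% of their DMSO level, 28 kept more than 25% and up to 75%, and 17 kept more than 75%, 10 of them more than 100%. Among genes already counted in control and called at least 2-fold higher in M1 medium (edgeR adjusted p under 0.05), 39.1% of 1833 were lower with IKK16 and 4.58% higher, with a median log2 fold change of -0.37.

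**Figure D2:**
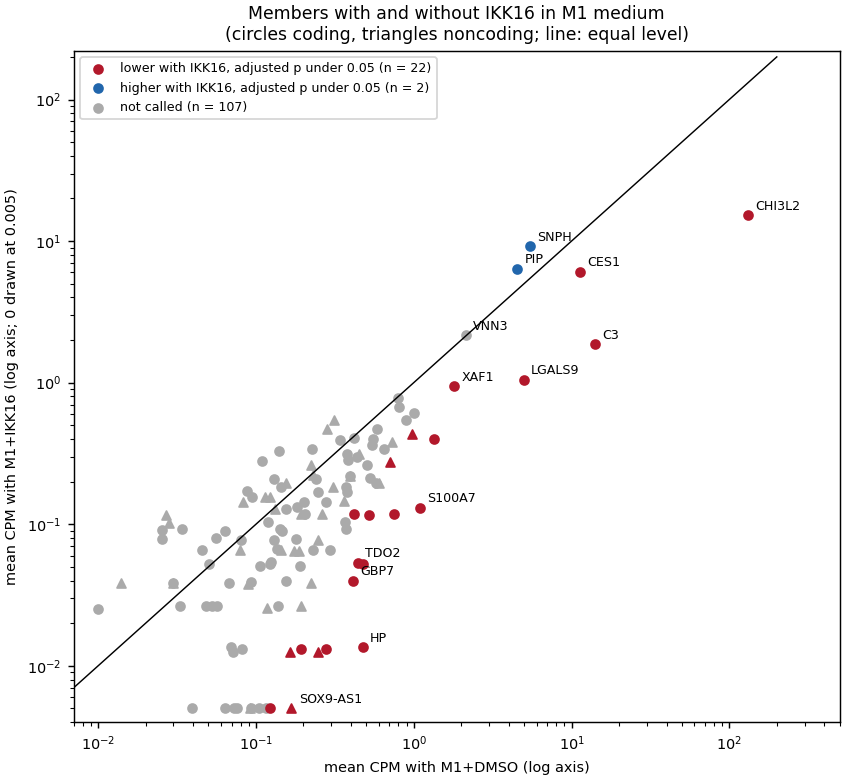
Mean CPM of each member in M1 medium with IKK16 (vertical) against DMSO (horizontal), both on log axes, with means of 0 drawn at 0.005. The 22 members called lower (red) lie below the line of equal level, from CHI3L2 at the right to SOX9-AS1 at the bottom, and the 2 called higher (blue) are SNPH and PIP.

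Of the 4 members listed with complement and acute phase genes, 3 fell with IKK16, beside 11.0% lower and 10.8% higher over all genes tested. CHI3L2, at chr1:111227659-111243440 (GRCh38.p14), had 17, 14.2 and 14.8 CPM with IKK16, against 128, 125 and 139 CPM with DMSO. The groups are far apart, with a log2 fold change of -3.09 ± 0.08 (SE; edgeR adjusted p = 7.82e-16). C3, at chr19:6677704-6720650, had 2.25, 1.70 and 1.67 CPM with IKK16, against 14.7, 12.2 and 15.3 CPM with DMSO, a log2 fold change of -2.90 ± 0.16 (edgeR adjusted p = 1.96e-12). HP, haptoglobin, which binds free haemoglobin in plasma, had 0, 1 and 0 counts with IKK16, against 8, 17 and 15 with DMSO. Its log2 fold change was -4.79 ± 0.87 (edgeR adjusted p = 0.000361). CFI, the protease that inactivates C3b, had 0, 4 and 0 counts with IKK16, against 2, 2 and 6 with DMSO, and did not pass the test. CHI3L2 is a chitinase-like protein rather than a complement factor. C4BPA, a member that encodes a complement regulator, is missing from the list, so the tally depends on how the list was drawn. It had 9, 0 and 4 counts with IKK16, against 3, 4 and 13 with DMSO, and was not called (edgeR adjusted p = 0.716). CHI3L2 and C3 remained above M0 medium with IKK16 (edgeR adjusted p = 1.31e-16 and 3.12e-10), and CHI3L2 was still at least 142-fold higher than M0 medium at its limit. HP was not called above M0 medium with IKK16 (edgeR adjusted p = 0.97).

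**Figure D3:**
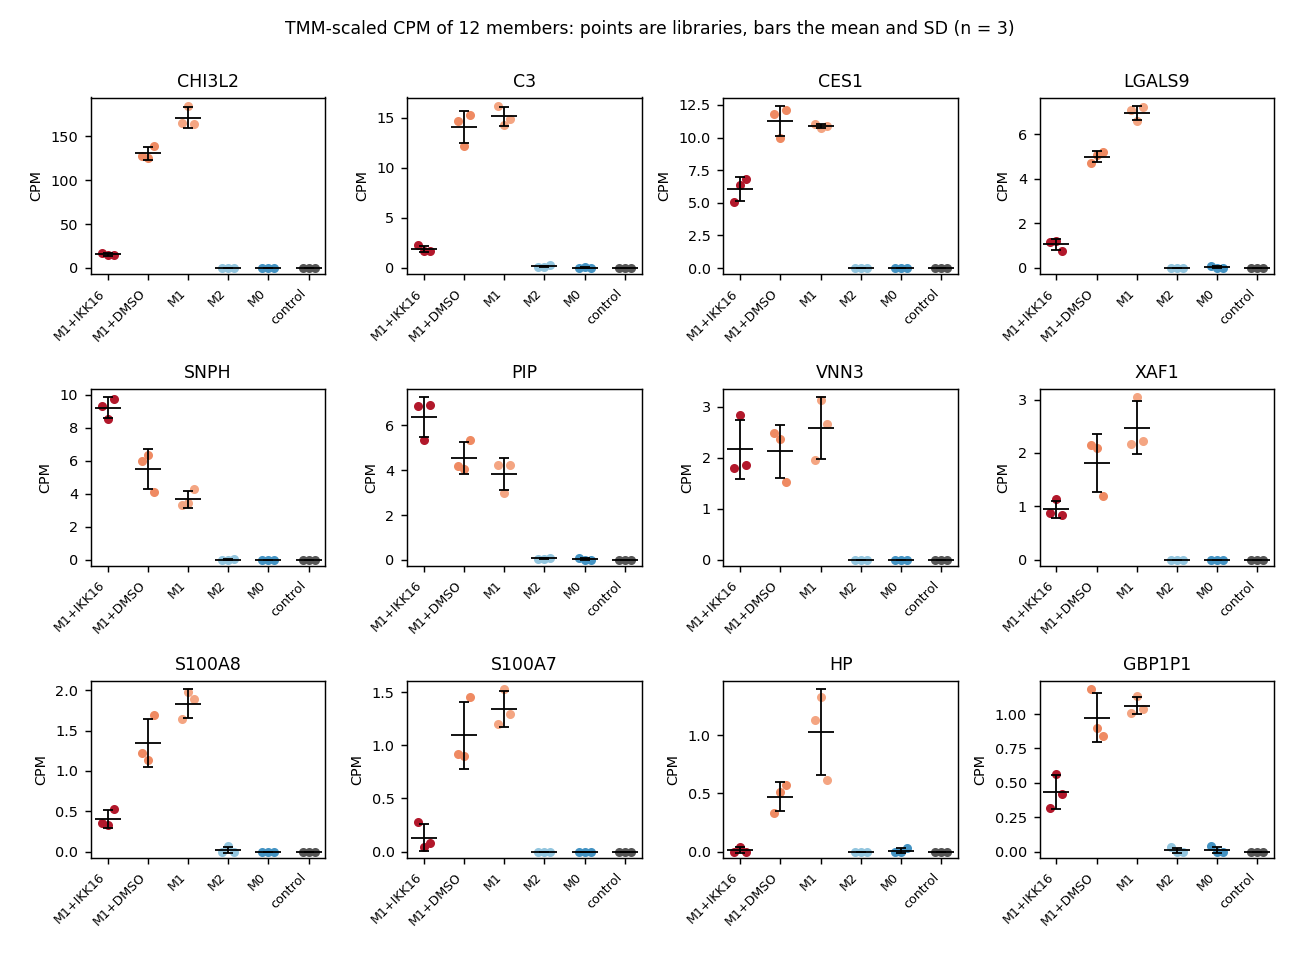
CPM of 12 members by library (points) with the mean and SD of each group (n = 3). CHI3L2, C3, LGALS9, S100A7 and HP are low with IKK16 next to DMSO, SNPH and PIP are higher, VNN3 overlaps, and all 12 are at or near 0 in M2, M0 and control libraries.

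Among interferon-induced effectors, 3 of 5 fell with IKK16 and 0 rose, beside 11.0% lower and 10.8% higher over all genes tested. XAF1 had 0.868, 1.13 and 0.833 CPM with IKK16, against 2.14, 2.10 and 1.19 CPM with DMSO (log2 fold change -0.94 ± 0.28, edgeR adjusted p = 0.0198). The highest IKK16 library is just under the lowest DMSO library, and the call was lost when replicate 1 or 3 of IKK16, or 1 or 2 of DMSO, was left out (adjusted p up to 0.0994). GBP7, a guanylate-binding protein, one of the large interferon-induced GTPases that attack intracellular pathogens, had 2, 1 and 0 counts with IKK16, against 4, 14 and 17 with DMSO. Its log2 fold change was -3.27 ± 0.79 (edgeR adjusted p = 0.00445). GBP7 shares exon bases with its abundant neighbour GBP2 on the same strand, which had 2271 counts with IKK16, against 11989 with DMSO. GBP6, a relative of GBP7, had no count with IKK16, against 3, 3 and 4 counts with DMSO, at least 1.04-fold lower at the limit of 3 counts per library (edgeR adjusted p = 0.0334). SAMD9L, an interferon-induced restriction factor, had 8, 4 and 8 counts with IKK16, against 13, 8 and 19 with DMSO, and the cytidine deaminase APOBEC3G had 5 counts with IKK16, against 4 with DMSO. These 2 were not called. The call for GBP6 was lost without any 1 of the IKK16 replicates and without replicate 1 or 3 of DMSO (adjusted p up to 0.0855).

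Of the epithelial antimicrobial genes, S100A8 and S100A7 fell. S100A8, a subunit of the metal-binding protein calprotectin, had 0.355, 0.324 and 0.530 CPM with IKK16, against 1.22, 1.14 and 1.69 CPM with DMSO (log2 fold change -1.72 ± 0.34, edgeR adjusted p = 0.000791). S100A7, psoriasin, an antimicrobial protein of keratinised epithelia, had 7, 1 and 2 counts with IKK16, against 22, 30 and 38 with DMSO (log2 fold change -3.01 ± 0.49, edgeR adjusted p = 0.00014). In both genes every IKK16 library was below every DMSO library. DEFB4A, which encodes human beta-defensin 2, had no count with IKK16, against 5, 2 and 2 with DMSO (edgeR adjusted p = 0.0555). The membrane mucin MUC21 had 4, 2 and 1 counts with IKK16, against 1, 2 and 0 with DMSO. S100A7A, a near copy of S100A7 in the same cluster on chromosome 1, had no count with IKK16, against 0, 4 and 5 with DMSO (edgeR adjusted p = 0.0397 without replicate 1 of DMSO, and not called with it), and reads of such copies may be split in counting.

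The sensors of the innate immune system were called in 1 case of 5, beside 11.0% of all genes tested lower and 10.8% higher. TLR7, an endosomal receptor for single-stranded RNA, had 3, 2 and 4 counts with IKK16, against 9, 25 and 11 with DMSO (log2 fold change -2.13 ± 0.55, edgeR adjusted p = 0.00723). Without replicate 2 of DMSO the adjusted p was 0.0617. CASP1, the inflammasome protease that matures interleukin 1 beta, had 13, 23 and 10 counts with IKK16, against 23, 44 and 19 with DMSO, and these groups overlap in CPM (log2 fold change -0.75 ± 0.39, edgeR adjusted p = 0.201). CARD16, a decoy for caspase 1 encoded beside it on chromosome 11, held 51.6% of its DMSO level (edgeR adjusted p = 0.349). GSDMA, a pore-forming gasdermin, held 57.6%, and NLRP10, an inflammasome-related protein, 83.4%. CASP1 with IKK16 was above M0 medium (edgeR adjusted p = 2.32e-05), while TLR7 was not called (edgeR adjusted p = 0.081).

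In the lists of tumour necrosis factor and NF-κB adaptor genes, cytokines, leukocyte surface genes and transcription factors, 0 of 7 members passed the test in edgeR or DESeq2, and 0 had an unadjusted p under 0.05. Over all genes tested, 11.0% were lower and 10.8% higher. With 7 members, most of them at low counts, 0 calls says little about these genes. LTB had 0.631, 0.486 and 0.909 CPM with IKK16, against 0.672, 0.901 and 0.843 CPM with DMSO, groups that overlap (log2 fold change -0.26 ± 0.39, edgeR adjusted p = 0.705). TNFAIP6, a hyaluronan-binding protein induced by tumour necrosis factor, had 2, 0 and 0 counts with IKK16, against 0, 6 and 6 with DMSO. TNIP3, a partner of the NF-κB inhibitor A20, had 0, 1 and 2 counts with IKK16, against 0, 3 and 0 with DMSO. EBI3, a subunit of the cytokines interleukin 27 and 35, had 2, 9 and 5 counts with IKK16, against 19, 8 and 14 with DMSO (edgeR adjusted p = 0.259). AREG had 12, 2 and 2 counts with IKK16, against 6, 2 and 2 with DMSO. ITGAX, the leukocyte integrin CD11c, had 4, 6 and 3 counts with IKK16, against 3, 2 and 2 with DMSO, and the AP-1 family factor BATF had 1, 0 and 3 counts with IKK16, against 2, 4 and 3 with DMSO. The transcription factor genes STAT4 and HOXA13 stand in none of these lists and were not called (edgeR adjusted p = 0.597 and 0.759). The smallest total with DMSO among members called lower was 10 counts.

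Enzymes and matrix genes had 1 call of 3 members each, both lower with IKK16, beside 11.0% lower and 10.8% higher over all genes tested. TDO2, which opens the indole ring of tryptophan on the way to kynurenine, had 2, 2 and 0 counts with IKK16, against 5, 12 and 20 with DMSO (log2 fold change -2.99 ± 0.76, edgeR adjusted p = 0.00777), and without replicate 3 of DMSO the adjusted p was 0.0568. COL22A1, the collagen XXII chain of tissue junctions, had 3, 4 and 2 counts with IKK16, against 15, 44 and 8 with DMSO (log2 fold change -2.68 ± 0.58, edgeR adjusted p = 0.00232). VNN3, of the vanin (pantetheinase) family, had 46, 70 and 49 counts with IKK16, against 59, 79 and 40 with DMSO, and the groups overlap (log2 fold change 0.02 ± 0.25, edgeR adjusted p = 0.976). NOS2, the inducible nitric oxide synthase, had no count with IKK16, against 2, 4 and 2 with DMSO (edgeR adjusted p = 0.128). PLAU, the urokinase protease, held 55.9% of its DMSO level, and CTSE, the aspartic protease cathepsin E, 116%, neither called. PLAU has the same counts in every library as C10orf55, a noncoding gene on the opposite strand, so their reads cannot be told apart here.

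The 8 members with symbols of ion channels and G protein-coupled receptors gave 0 calls with IKK16 in edgeR or DESeq2 (1 lower at an unadjusted p under 0.05), and 6 of them were above M0 medium with the inhibitor present. Over all genes tested, 11.0% were lower and 10.8% higher with IKK16, and 23.0% were above M0 medium with it. ADGRE1, an adhesion receptor of myeloid cells, had 22, 18 and 20 counts with IKK16, against 14, 29 and 24 with DMSO (log2 fold change -0.03 ± 0.35, edgeR adjusted p = 0.976). P2RY6, a receptor for UDP, had 8, 7 and 16 counts with IKK16, against 14, 15 and 16 with DMSO. HCAR3, a receptor for hydroxylated fatty acids, had 6, 10 and 12 counts with IKK16, against 13, 18 and 14 with DMSO (edgeR adjusted p = 0.423). CXCR3, the receptor for CXCL9, CXCL10 and CXCL11, had 2, 2 and 3 counts with IKK16, against 0, 0 and 2 with DMSO (edgeR adjusted p = 0.313).

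The 92 members in none of these lists hold 11 of the lower calls and both higher ones. Of all genes tested, 11.0% were lower and 10.8% higher. CES1 had 5.05, 6.36 and 6.81 CPM with IKK16, against 11.8, 9.97 and 12.1 CPM with DMSO (log2 fold change -0.89 ± 0.12, edgeR adjusted p = 1.64e-05). LGALS9 had 1.18, 1.22 and 0.757 CPM with IKK16, against 4.70, 5.05 and 5.21 CPM with DMSO (log2 fold change -2.25 ± 0.20, edgeR adjusted p = 2.1e-08). TDRD10, a tudor domain protein, had 4, 0 and 0 counts with IKK16, against 7, 20 and 14 with DMSO (log2 fold change -3.11 ± 0.77, edgeR adjusted p = 0.00556). These groups did not overlap. Of the low members that fell, C2CD4A held 28.2% of its DMSO level, ACTBL2 4.77% and PARP6 6.83%, all at low counts. The call for C2CD4A was lost with no filter and without any 1 of the IKK16 replicates or replicate 1 or 3 of DMSO (adjusted p up to 0.22). That for PARP6 was lost without replicate 2 or 3 of IKK16 or 1 or 2 of DMSO (adjusted p up to 0.104).

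SNPH and PIP went the other way. SNPH had 9.31, 8.51 and 9.77 CPM with IKK16, against 5.96, 6.37 and 4.1 CPM with DMSO (log2 fold change 0.74 ± 0.15, edgeR adjusted p = 0.00117). PIP had 6.86, 5.35 and 6.89 CPM with IKK16, against 4.20, 4.05 and 5.36 CPM with DMSO, where the lowest IKK16 library is under the highest DMSO library (log2 fold change 0.49 ± 0.17, edgeR adjusted p = 0.0344). The call for PIP was lost in DESeq2 and without replicate 1 or 3 of IKK16 or 1 or 2 of DMSO (adjusted p up to 0.152), and that for SNPH in none of 13 alternative analyses. In M1 medium without solvent SNPH had 3.34, 3.41 and 4.27 CPM and PIP 4.25, 3.00 and 4.24 CPM.

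**Figure D4:**
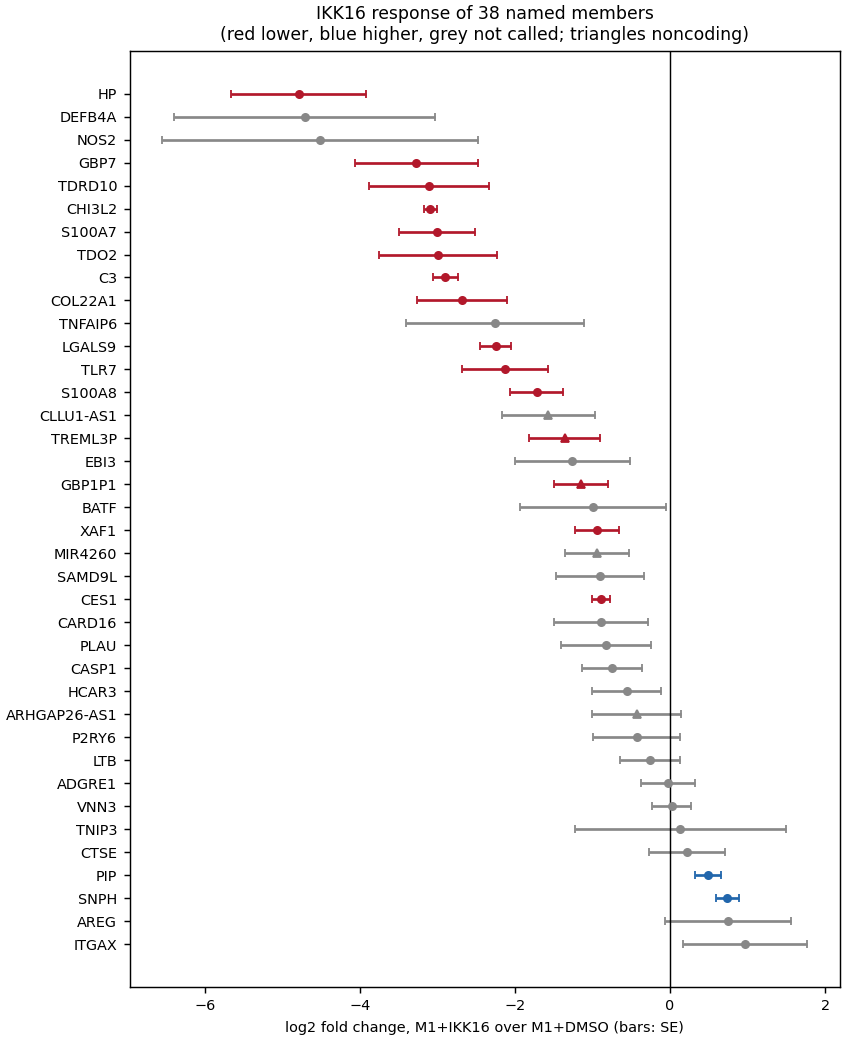
Log2 fold change of M1 medium with IKK16 over M1 medium with DMSO for the 38 members named by a fixed rule, with SE (n = 3 libraries each). HP is lowest among those called (red), SNPH and PIP are the called members to the right of 0 (blue), and members at 0 counts with IKK16, such as DEFB4A and NOS2, have fitted values that depend on the prior count.

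The 36 noncoding members had 418 counts with IKK16, against 736 with DMSO, and 1016 in M1 medium alone. Of these, 5 were lower and 0 higher with IKK16 (10 and 0 at an unadjusted p under 0.05), and 17 lower and 2 higher of the 95 coding members. Both stand beside 11.0% lower and 10.8% higher over all genes tested. The median log2 fold change was -0.88 for noncoding and -0.89 for coding members, and -0.72 and -0.62 with members at 0 set at their bound. By annotation the noncoding members comprise 23 long noncoding RNAs, 3 microRNA genes, 6 transcribed pseudogenes and 4 noncoding transcripts of genes annotated as protein-coding (C6orf141, C13orf42, KLRF1 and C5orf58). Transcribed pseudogenes gave 3 lower calls of 6, and long noncoding RNAs 2 of 23. A difference between the coding and noncoding members was not tested.

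GBP1P1 is a pseudogene of the guanylate-binding protein GBP1 at chr1:89407679-89424934. It had 0.316, 0.567 and 0.416 CPM with IKK16, against 1.18, 0.901 and 0.843 CPM with DMSO (log2 fold change -1.15 ± 0.35, edgeR adjusted p = 0.0194), and the call was lost without replicate 1 or 3 of IKK16 or replicate 1 of DMSO (adjusted p up to 0.0945). TREML3P, a pseudogene of the TREM receptor cluster on chromosome 6, had 9, 6 and 6 counts with IKK16, against 20, 30 and 10 with DMSO (log2 fold change -1.36 ± 0.46, edgeR adjusted p = 0.0406), a call lost in DESeq2, with the replicate block (adjusted p = 0.0606), without any 1 of the IKK16 replicates and without replicate 1 or 2 of DMSO (adjusted p up to 0.172). Both pseudogenes are close copies of other genes, so the assignment of their reads is uncertain. SOX9-AS1, antisense to the transcription factor gene SOX9, had no count with IKK16, against 6, 2 and 5 with DMSO, at least 1.42-fold lower at the limit of 3 counts per library (edgeR adjusted p = 0.0214). LOC100420587 and ERVE-5, which overlap on chromosome 19 and may share reads, had 1 count each with IKK16, against 21 and 14 with DMSO. The call for SOX9-AS1 was lost without any 1 of the IKK16 replicates or replicate 1 or 3 of DMSO (adjusted p up to 0.066). That for ERVE-5 was lost with no filter and without replicate 1 or 2 of IKK16 or 2 or 3 of DMSO (adjusted p up to 0.13).

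Other noncoding members did not pass the test. CLLU1-AS1 had 6, 2 and 7 counts with IKK16, against 24, 14 and 10 with DMSO (log2 fold change -1.57 ± 0.60, edgeR adjusted p = 0.0669; 0.0359 with the 2 groups alone). The coding entry CLLU1OS is the same locus and had nearly the same counts. ARHGAP26-AS1 had 10, 6 and 8 counts with IKK16, against 18, 3 and 13 with DMSO. MIR3142HG had 12, 12 and 12 counts with IKK16, against 8, 12 and 4 with DMSO, and its IKK16 libraries were all above its DMSO libraries in CPM (log2 fold change 0.71 ± 0.50, edgeR adjusted p = 0.359). With IKK16 it remained above M0 medium, where it had no count (edgeR adjusted p = 3.29e-05).

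MIR4260 is an example of a short noncoding entry counted in polyadenylated RNA, and the source of its counts was not tested. The gene spans 67 bases at chr1:209623444-209623510 inside an exon of LAMB3, which encodes a laminin chain of the epithelial basement membrane, on the same strand. Its mature microRNA of 19 bases at chr1:209623482-209623500 is shown with the seed, bases 2 to 8, in capitals.
hsa-miR-4260: cUUGGGGCauggaguccca
MIR4260 had 9, 8 and 12 counts with IKK16, against 16, 25 and 20 with DMSO (log2 fold change -0.94 ± 0.41, edgeR adjusted p = 0.115). LAMB3 had 3625 counts with IKK16, against 10192 with DMSO (log2 fold change -1.37 ± 0.07, edgeR adjusted p = 1.38e-13), and 12628 counts in M1 medium, against 36 in control. Reads of the LAMB3 transcript and of the microRNA precursor cannot be told apart in this table. MIR22 lies in the same way in MIR22HG, which had 697 counts in M1 medium, against 99 in control, and MIR1247 in DIO3OS, which had 494 counts in M1 medium, against 6 in control.

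Shared and near positions were counted for the members alone, and the share over all genes was not taken. Of the 131 members, 30 share exon bases, or bases of their whole span where no exons were listed, with another counted gene. For 16, 7 coding and 9 noncoding, that gene has more counts in M1 medium. Among these, LOC101928034, MARCHF11-DT, DENND2B-AS1 and LOC101929319 were placed by their span, introns included, so shared exons are not shown for them. Genes without listed exons were not searched as partners, so the overlap of LOC100420587 and ERVE-5 is not counted. The use of strand in counting is not given in the sources used here, so reads of opposite strands may be mixed. Without these 16 members, 21 were lower with IKK16 and 2 higher. Within 100 kb of another member lie 26 members, among them S100A7, S100A7A and S100A8, CASP1 and CARD16, and GBP1P1 and GBP6. Chromosome 1 holds 19 members, of which 7 were lower and 0 higher with IKK16, beside 11.0% lower and 10.8% higher over all genes tested. The share among all genes of chromosome 1 was not taken, and a difference between chromosomes was not tested.

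In M1 medium with IKK16, 66 of the 131 members were still higher than in M0 medium and 0 lower (edgeR; 73 and 0 at an unadjusted p under 0.05, 61 and 0 with DESeq2), beside 23.0% higher and 23.3% lower of all genes. The M0 libraries are those of the DMSO comparison above, and with so few counts in them a lower call was hardly possible here too. Of the 22 members lower with IKK16, 11 were called above M0 medium with the inhibitor and 11 were not. A further 46 members were above M0 medium with and without IKK16, above M2 medium with DMSO, and not called lower with IKK16. With IKK16, 10 members had no count, against 0 members with DMSO, 70 in M0 medium and 73 in M2 medium.

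The motif shares put the printed promoters in context. A RefSeq promoter was matched for 83 members, and the letters of 3 motifs were searched on both strands of its 300 bases. A κB match (the NF-κB consensus, allowing its degenerate letters) was present in 9 of 83, or 10.8%, beside 5.72% of 27305 promoters. The 9 are CHI3L2, GBP7, LRRC55, LTB, MIR3142HG, NTRK2, SOX9-AS1, TNIP3 and XAF1. A GAS match (TTCNNNGAA) was present in 10.8%, beside 7.88% of all promoters, and an ISRE match (GAAA, any 2 letters, GAAA) in 4.8%, beside 3.65% (2.4%, beside 3.07%, in the 250 bases before the start alone). Of the 13 members lower with IKK16 that have a promoter here, 4 had a κB match, and of the other 70, 5. No matches of different motifs shared bases in the 4 printed promoters. These are counts of letters, and binding was not measured.

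Genes known as NF-κB targets, from a list drawn up for the pathway with earlier results of these data known, were also tested with IKK16. Of 40 NF-κB target genes tested, 20 were lower and 4 higher with IKK16, with a median log2 fold change of -0.26. Over all genes tested, 11.0% were lower and 10.8% higher. Of the 1833 genes counted in control and called at least 2-fold higher in M1 medium, 39.1% were lower and 4.58% higher. A difference from these shares was not tested. SOD2, the mitochondrial superoxide dismutase, averaged 650 ± 16.1 CPM with IKK16, against 1770 ± 59.7 CPM with DMSO (SD, n = 3 each), while LCN2, lipocalin 2, averaged 383 ± 17.7 CPM with IKK16, against 408 ± 19.8 CPM with DMSO (edgeR adjusted p = 0.29). The members LTB and PLAU stand in this list.

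The label of the cells was checked against markers. All 12 prostate luminal markers were counted in every group, with a summed level of 3940 to 3980 CPM with IKK16, 3380 to 3400 with DMSO, 3230 to 3290 in M1 medium and 9020 to 9220 in control. Of 34 macrophage markers, S100A8, NCF4 and ITGAX are among the members, and the summed level of the list was 279 to 296 CPM with IKK16, 304 to 326 with DMSO, 322 to 352 in M1 medium and 235 to 238 in control. Of the 8 markers that define the type, TYROBP had no count in any library and PTPRC none in M1 medium with or without DMSO. CD14, AIF1 and FCER1G had at most 12 counts in any group, and CSF1R had 17894 counts in M1 medium and 20347 in control. LYZ had 62 counts with IKK16, 172 with DMSO, 209 in M1 medium and 4 in control. SPI1 went the other way, with 10 counts with IKK16, 10 with DMSO, 12 in M1 medium and 47 in control. CSF1R makes up most of the summed level, with a mean of 225 CPM with IKK16, 193 with DMSO, 195 in M1 medium and 223 in control, so the sum says little about the other markers. CD33 was lower, with 30 counts with IKK16, 21 with DMSO, 20 in M1 medium and 39 in control. Several others were much higher in M1 medium than in control. CLEC7A, a receptor for fungal glucans, had 1221 counts with IKK16, 3697 with DMSO, 5125 in M1 medium and 428 in control. The lysosomal protein CD68 had 1906 counts with IKK16, 2550 with DMSO, 3368 in M1 medium and 448 in control. ITGAM, the integrin CD11b, had 775 counts with IKK16, 1586 with DMSO, 1825 in M1 medium and 14 in control. S100A9, the calprotectin partner of S100A8, had 325 counts with IKK16, 1260 with DMSO, 1748 in M1 medium and 8 in control. In all, 11 of the 34 markers had no count in M1 medium and 16 had none in control. The part of these markers in the results on the members was not tested.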

How the data were processed

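RNA was sequenced from LNCaP libraries, 18 in 6 groups of 3 taken from the labels. The table deposited by the authors gives expected counts for RefSeq transcripts, not normalised and in steps of 0.5. Trimmomatic, BWA 0.7.17, HOMER 4.10 and hg38 appear in the submitters' processing notes; what each tool did, the strand setting and how reads with several matches were treated is not given in the sources used here. Of 70507 transcripts, 69830 were named with RefSeq (GRCh38.p14), 327 with GENCODE 29, and 350, holding 0.0916 to 0.1115% of a library's counts, stayed out. Each gene is its transcript with the highest total, rounded.

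Tests used edgeR 4.0.16 (R 4.3.3): TMM scaling, 20506 genes with at least 10 counts over the 18 libraries, which keeps every member, a quasi-likelihood fit over all 6 groups, and two-sided p-values adjusted by Benjamini-Hochberg over all genes. Each SE was taken as the log2 fold change over the root of the F statistic. CPM are TMM-scaled. M1 medium against control was used by the rule, so no test of it is given for the members; its fit over all genes served to choose the genes called at least 2-fold higher in M1 medium. Values of 1 member and of 1 gene list are not reported here. The fit was tested on simulated data made from these libraries. That test gave no separate result for low counts, so it does not show how well changes in low members are found. Only 11 members reached 1 CPM with DMSO, and 75 had under 30 counts over the IKK16 and DMSO libraries. All pairs of replicates differed beyond sampling noise (chi-square per gene 2.659 to 20.61). Lowest depth in a library was 24201864 gene counts. PCR reads without molecular identifiers are not independent molecules.

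The members, lists, naming rule and tests were chosen with earlier results of these data known. Named members are the 10 coding and 5 noncoding with the highest level with DMSO, up to 8 with the largest fall and rise among those called with at least 30 counts and no overlap, and up to 3 of each role list, 38 in all; all other members in the text were chosen after their values were seen. Alternatives were DESeq2 1.42.0, its size factors, filterByExpr, no filter, the 2 groups alone, the longest transcript, the replicate number as a block, each library left out, and stricter member rules. The alternatives on members with 30 counts and on members without shared exons were added after the data were seen.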

Additional observations from a re-analysis of the deposited data

How the results depend on the processing

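Of the 24 members called with IKK16, 13 kept their call in each alternative that gave an adjusted p, and none changed direction. DESeq2 called 14 members lower and 1 higher, against 22 and 2 in the main analysis, with no adjusted p for 7 of the 22. The other alternatives gave 16 to 26 lower and 2 higher. Leaving out each library in turn gave 15 to 18 lower and 1 to 2 higher, PIP being the one lost. The filterByExpr filter kept 52 members and gave 52 higher than M0 medium and 52 higher than M2 medium with DMSO, and 43 higher than M0 medium with IKK16, against 91, 92 and 66, because it tests fewer members. Leaving out each library gave 82 to 89 against M0 medium, 80 to 88 against M2 medium and 50 to 61 for IKK16 against M0 medium, each with 0 lower. The rule itself gave 70 members with an M1 limit of 20 counts and 52 with a limit of 30, and 96 to 192 with 1 library left out. Same-numbered libraries did not deviate together (correlations -0.0497 to 0.0734); the replicate block gave 22 lower and 2 higher with IKK16, 91, 88 and 65 in the other comparisons. Members not called whose sign changed in some alternative, with the cause not tested, were VNN3 (-0.22 to 0.13), ADGRE1 (-0.19 to 0.08), ARHGAP26-AS1 (-0.98 to 0.17), CTSE (-0.13 to 0.38), NLRP10 (-0.93 to 0.15), AREG (-0.62 to 1.57), APOBEC3G (-0.04 to 0.84) and TNIP3 (-0.71 to 3.30). These are the lowest and highest log2 fold changes of IKK16 over DMSO among all alternatives that gave an adjusted p. With 250 bases before the start alone, κB matches were in 10.8% of members (5.05% of all promoters) and GAS matches in 9.6% (6.78%). ISRE matches were in 2.4% of members, below the 3.07% of all promoters, against 4.8% and 3.65% in 300 bases, so that direction turned. Depth limits the low members: 75 of the 131 had under 30 counts over the IKK16 and DMSO libraries, and 6 of those were called lower.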
